A study of Mus musculus with 14 samples.

Results

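The insulin-like growth factor (IGF) system was followed in hind limb skeletal muscle of mice through 10 genes, taken by symbol from both expression tables out of 49585 genes in each. They are the ligands Igf1 and Igf2, the receptors Igf1r and Igf2r, and the 6 binding protein genes Igfbp2 to Igfbp7. RNA-seq covered 4 groups of 3 libraries: wild-type (WT) muscle without injury, Myf6 knockout (KO) muscle without injury, injured WT muscle and injured Myf6 KO muscle. Myf6 (MRF4) is a myogenic transcription factor of muscle fibres. The allele, strain, age and sex of the mice, and how and when before sampling the muscle was injured, are not given in the sources used here. Library descriptions carry an animal number with L in the uninjured and R in the injured groups, read here as the uninjured left and the injured right leg of 3 WT and 3 KO animals. WT and KO animals differ, so genotype and any litter or batch cannot be told apart. Binding of Flag-tagged Myf6 near the same genes was read from ChIP-seq peaks of primary myotubes, cells grown from adult satellite cells (1 library against 1 control).

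IGF1 and IGF2 are small secreted hormones related to insulin, and muscle makes both. They act mainly through the IGF1 receptor, a tyrosine kinase that signals through IRS adaptors, PI3 kinase, AKT and mTOR to raise protein synthesis and hold back FOXO factors. IGF2R, also the mannose 6-phosphate receptor, takes up and degrades IGF2. The secreted binding proteins hold the ligands in tissue fluid and blood and, by holding or releasing them, limit or prolong their action.

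Myogenic factors bind the E-box CANNTG, which reads the same on both strands. RefSeq promoters (GRCm38.p6) were matched for all 10 genes, with 14 start sites, and the 250 bases before 4 of these starts are shown because the results below turn on these genes: both ligands, the receptor gene with the strongest peak, and Igfbp5, for which 2 of 3 KO animals lay above every WT library of the same injury state. Each sequence is on the gene's strand, 5′ to 3′, with E-boxes in capitals; the Igf2 start is the most downstream of 4. The windows are chr10:87860861-87861110 (+) for Igf1, chr7:142657497-142657746 (-) for Igf2, chr17:12769707-12769956 (-) for Igf2r and chr1:72874866-72875115 (-) for Igfbp5.
Igf1: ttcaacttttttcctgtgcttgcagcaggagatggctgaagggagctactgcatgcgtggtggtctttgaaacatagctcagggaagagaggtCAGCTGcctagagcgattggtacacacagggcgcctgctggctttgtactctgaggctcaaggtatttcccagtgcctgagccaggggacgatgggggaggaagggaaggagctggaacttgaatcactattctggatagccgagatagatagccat
Igf2: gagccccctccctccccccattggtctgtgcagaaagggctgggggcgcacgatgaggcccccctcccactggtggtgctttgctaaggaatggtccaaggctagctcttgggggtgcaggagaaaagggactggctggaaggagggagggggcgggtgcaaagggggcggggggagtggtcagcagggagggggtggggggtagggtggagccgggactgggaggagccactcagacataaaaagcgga
Igf2r: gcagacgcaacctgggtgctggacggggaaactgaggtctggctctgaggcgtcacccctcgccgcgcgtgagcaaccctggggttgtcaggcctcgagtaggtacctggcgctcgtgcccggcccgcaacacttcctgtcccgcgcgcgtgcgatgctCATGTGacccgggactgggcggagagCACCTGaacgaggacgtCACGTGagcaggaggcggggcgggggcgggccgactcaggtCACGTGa
Igfbp5: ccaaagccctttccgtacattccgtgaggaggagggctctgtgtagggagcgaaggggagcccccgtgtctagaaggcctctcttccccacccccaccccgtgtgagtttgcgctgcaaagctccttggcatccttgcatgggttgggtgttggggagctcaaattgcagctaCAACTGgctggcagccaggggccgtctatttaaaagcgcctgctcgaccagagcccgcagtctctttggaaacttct

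An E-box was in 9 of the 14 member windows (64.3%), beside 66.2% of 32817 RefSeq windows of the same length. Igf2r held 4, a number that 3.84% of the RefSeq windows reach or pass. Igf1 and Igfbp5 held 1 each, and the Igf2 window shown none. The most upstream Igf2 window held 2. A match is a description of letters only. No Flag-Myf6 peak summit lay in any of the 14 windows.

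The libraries held between 1880087 and 49392472 reads assigned to genes. Values are RPM, reads scaled to the same total over genes in every library, so a level can be compared between libraries for 1 gene but not between genes of different length. The shallowest library was uninjured WT replicate 2, in which 3 reads stand for 1.60 RPM; floors and reads cover counting error only. Markers fit the labelled tissue: 8 muscle fibre genes such as Acta1 and Ckm summed to between 96902 and 152667 RPM in every library. The targeted gene, Myf6, was below every WT library in every KO library (WT 25.0 to 120.7, KO 1.86 to 3.46 RPM). Reads from mitochondrial genes made up 13.8% to 22.3% of the uninjured and 8.35% to 14.8% of the injured WT libraries. In KO they made up 15.3% (uninjured) and 23.2% (injured) in replicate 2, and 3.63% to 6.76% in the other 4 libraries, which lie below every WT library. KO replicate 2 thus stands apart from the other KO animals, and in uninjured muscle its share is inside the WT range. The part of this share in the results below was not tested. The labels do not say how the animals were raised or sampled, so p-values measure only the spread between these libraries. In whole tissue, fewer cells of a type and less RNA per cell cannot be told apart.

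None of the 9 genes that could be tested passed an adjusted p of 0.05 for KO against WT, in uninjured or injured muscle (limma on log2(RPM + 1), Benjamini-Hochberg over all genes tested). That rule called 0.281% of 12460 genes in uninjured and 0.269% of 12625 in injured muscle. The mean of Igf1 was lower in KO in both states, and that of Igf2 was higher in both, at 2.06 times the WT mean in injured muscle. Before adjustment, 3 of 9 genes had p under 0.05 in uninjured muscle (Igf1 and Igfbp6 lower, Igf2 higher), beside 14.2% of all genes, and 1 of 9 (Igf2, higher) in injured muscle, beside 10.3% of genes in either direction and 5.06% higher in KO. The median change of all genes was -0.18 in uninjured and 0.01 in injured muscle, so a change near those medians is no difference from the genes as a whole.

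**Figure D1:**
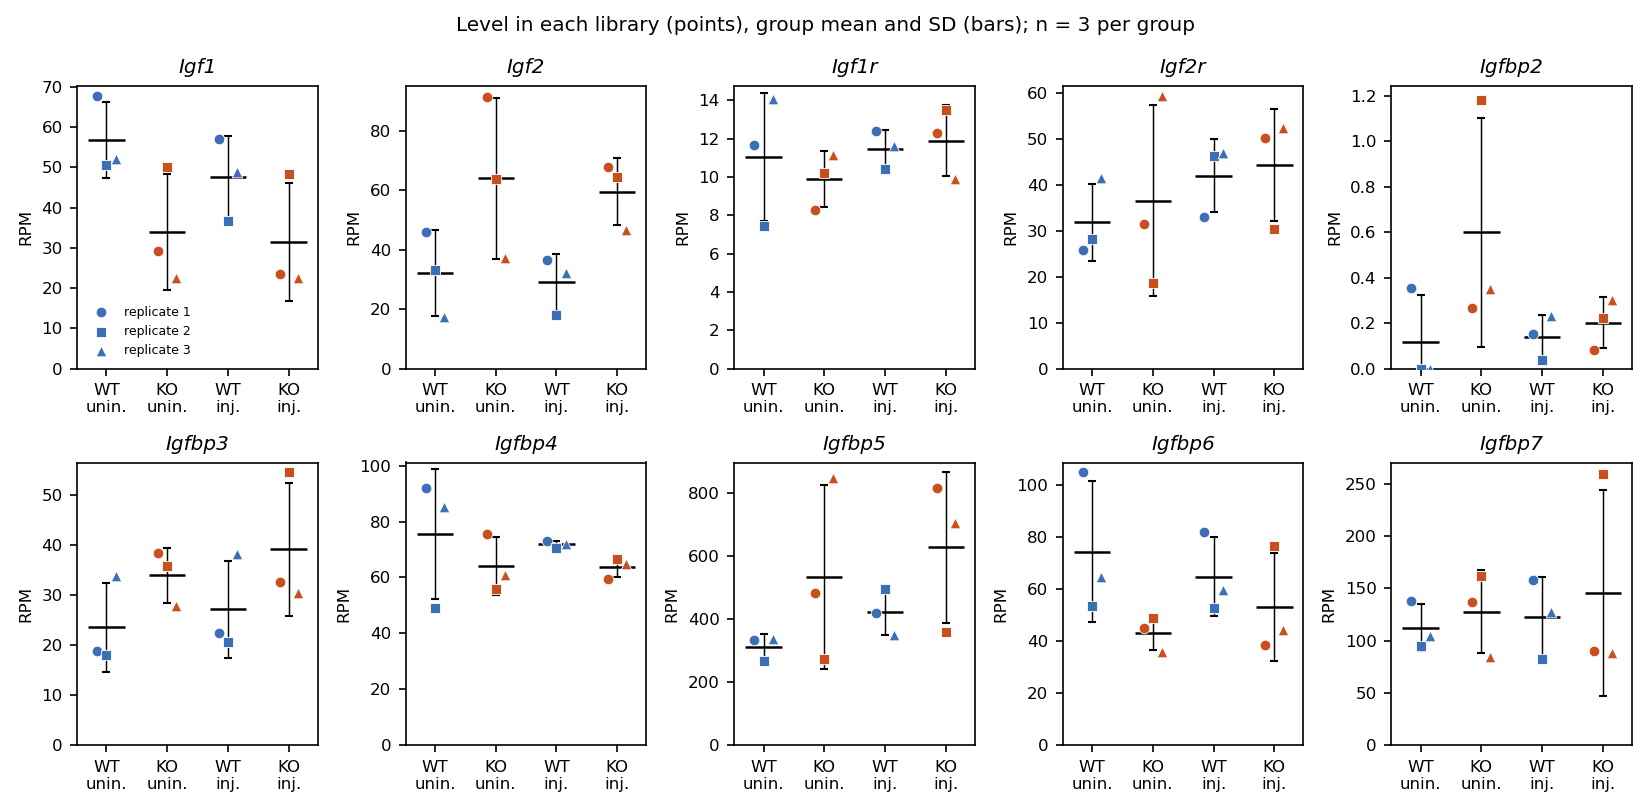
Level of each gene (RPM, linear axis from 0) in the 12 libraries, by group (WT blue, KO orange; unin., uninjured; inj., injured); marker shapes are the replicates, bars the group mean and SD (n = 3). All 3 uninjured KO libraries of Igf1 lie below the 3 WT libraries, and all 3 injured KO libraries of Igf2 lie above the 3 injured WT libraries.

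Igf1, the ligand that growth hormone induces and muscle makes for local use, was at 67.7, 50.5 and 52.0 RPM in uninjured WT and at 29.3, 50.1 and 22.5 RPM in uninjured KO muscle. The groups did not overlap, though KO replicate 2 lay within 1 RPM of the lowest WT library. The means were 56.7 ± 9.50 and 33.9 ± 14.4 RPM (SD, n = 3). KO minus WT was -0.79 on the log2(RPM + 1) scale (SE 0.34, limma p 0.0435, adjusted p 0.332). The exact permutation p was 0.1, the smallest that 3 against 3 libraries allow (two-sided). After injury the WT libraries held Igf1 at 57.0, 36.7 and 48.9 RPM and the KO libraries at 23.5, 48.5 and 22.5 RPM. The injured groups overlapped, with KO replicate 2 inside the WT range. The log2 change was -0.65 (SE 0.33, limma adjusted p 0.558). Without KO replicate 2 it was -1.10 (limma adjusted p 0.115) in uninjured and -0.99 (limma adjusted p 0.0191) in injured muscle. That injured fit called 2343 of 12312 genes, against 34 of 12625 with all 6 libraries. Scaling and tool moved the uninjured value, which was -0.41 with DESeq2 on recovered reads, -0.42 with edgeR and -0.40 in the authors' deposited table. It was -0.60 with TMM and -0.67 with upper quartile scaling, and larger in size, at -0.95, with scaling to reads outside mitochondrial genes.

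Igf2, the imprinted fetal growth factor, was at 46.0, 33.0 and 17.2 RPM in uninjured WT and at 91.3, 63.6 and 37.2 RPM in uninjured KO muscle. The groups overlapped, through KO replicate 3 lying below WT replicate 1. The mean was 32.1 ± 14.4 RPM in WT and 64.0 ± 27.1 RPM in KO (SD, n = 3), and the log2 difference was 0.99 (SE 0.43, limma p 0.0484, adjusted p 0.346). After injury Igf2 stood at 36.6, 18.0 and 32.3 RPM in the WT libraries and at 67.8, 64.3 and 46.5 RPM in the KO libraries. All 3 KO libraries were above all 3 WT libraries. The means were 29.0 ± 9.73 and 59.5 ± 11.4 RPM (SD, n = 3), and the log2 difference was 1.06 (SE 0.30, limma p 0.00947, adjusted p 0.315; exact permutation p 0.1). The Igf2 difference stayed positive in each of 17 alternatives, from 0.76 to 1.25 in injured and 0.61 to 1.33 in uninjured muscle. Blocking on replicate number gave limma adjusted p of 0.0299 (uninjured) and 0.837 (injured), and DESeq2 on recovered reads gave 0.116 (uninjured) and 0.0453 (injured). The replicate number joins different animals of the 2 genotypes. The authors' deposited table gave q-values of 0.384 and 0.154 for Igf2 and none under 0.05 for any of the 10 genes.

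**Figure D2:**
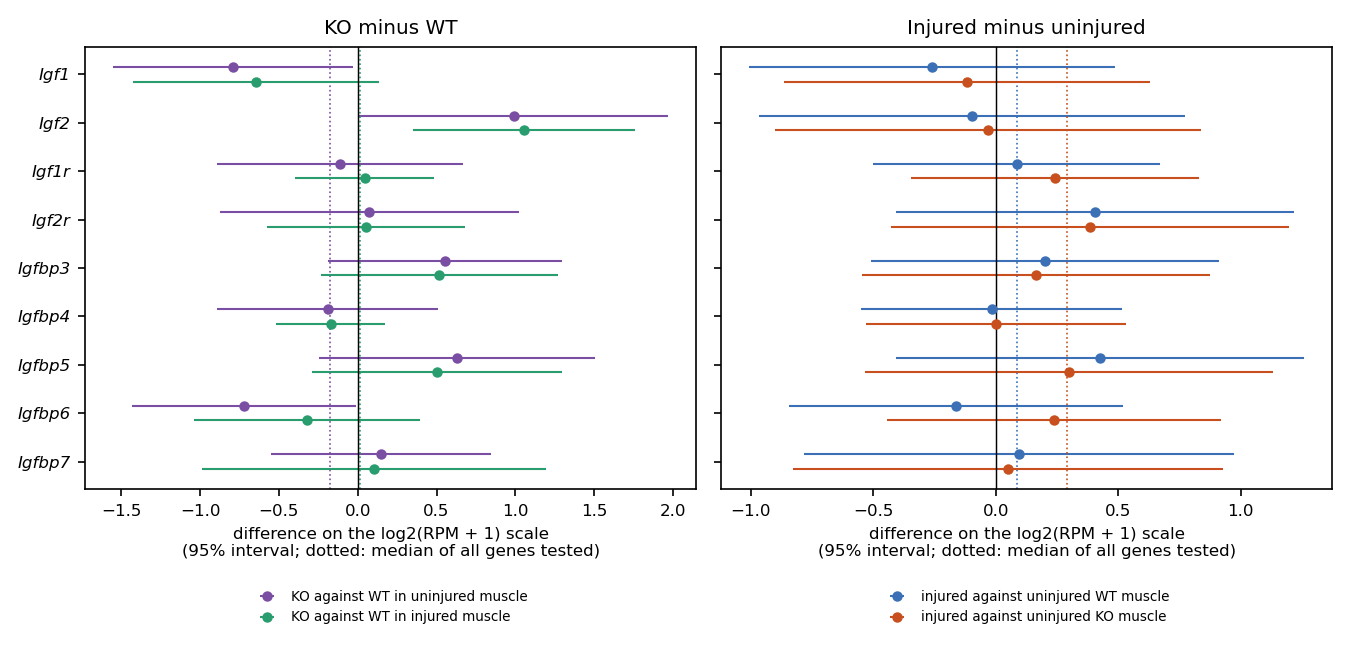
Difference on the log2(RPM + 1) scale for the 9 genes tested, KO minus WT on the left and injured minus uninjured on the right, with the 95% interval of each limma estimate; dotted lines mark the median of all genes tested. Of the KO minus WT intervals, 3 in uninjured muscle (Igf1, Igf2 and Igfbp6) and 1 in injured muscle (Igf2) leave out 0, before adjustment.

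Igf1r, the signalling receptor, was at 11.6, 7.45 and 14.1 RPM in uninjured WT and at 8.29, 10.2 and 11.2 RPM in uninjured KO muscle. Injured muscle held 12.4, 10.4 and 11.6 RPM in WT and 12.3, 13.5 and 9.88 RPM in KO. All 4 groups overlapped, and the highest library was 1.89 times the lowest. The log2 changes for KO against WT were -0.11 (95% interval -0.90 to 0.67) and 0.04 (-0.40 to 0.48); the sign of the first turned under other scalings.

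Igf2r, which clears IGF2, was at 25.7, 28.2 and 41.3 RPM in uninjured WT and at 31.5, 18.6 and 59.3 RPM in uninjured KO muscle. The injured WT libraries held 32.9, 46.2 and 46.9 RPM and the KO libraries 50.2, 30.3 and 52.4 RPM. Groups overlapped in each comparison, with log2 changes of 0.07 and 0.05 for KO against WT. Without KO replicate 2 they were 0.46 and 0.30. The antisense RNA Airn overlaps Igf2r in part. Whether counting used strand is not given in the sources used here, and the library kit does not mark it. Reads from the stretch that the 2 genes share cannot be told apart. Airn was at 5.01 to 13.3 RPM in the 12 libraries.

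Igfbp3, the main carrier of IGFs in blood, was at 18.8, 18.1 and 33.9 RPM in uninjured WT and at 38.3, 35.7 and 27.8 RPM in uninjured KO muscle. The injured groups were at 22.5, 20.7 and 38.3 RPM in WT and 32.6, 54.6 and 30.3 RPM in KO. In both states WT replicate 3 was inside the KO range, and the log2 changes of 0.55 and 0.52 had limma adjusted p of 0.488 and 0.622. Without KO replicate 2 the injured change was 0.26 (limma adjusted p 0.501).

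Igfbp4, an inhibitor of IGF action, was at 92.1, 48.9 and 85.4 RPM in uninjured WT and at 75.7, 55.8 and 60.9 RPM in uninjured KO muscle. The injured WT libraries held 73.0, 70.5 and 72.1 RPM and the injured KO libraries 59.6, 66.6 and 64.9 RPM. The injured groups did not overlap, with every KO library lower, but the ratio of the means was 0.886 and the log2 change -0.17 (SE 0.15, limma adjusted p 0.725). Non-overlap with lower KO libraries was found for 8.63% of all genes in that comparison, and non-overlap with higher KO libraries, as for Igf2, for 8.29%.

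Igfbp5, which holds IGFs at the cell surface and matrix and is made in muscle, was at 333.1, 265.4 and 337.3 RPM in uninjured WT and at 480.6, 272.3 and 845.9 RPM in uninjured KO muscle. The injured WT libraries held Igfbp5 at 418.1, 494.1 and 349.9 RPM and the injured KO libraries at 816.0, 358.8 and 704.2 RPM. KO replicate 2 was inside the WT range in both states, while replicates 1 and 3 were above every WT library of the same state. The log2 changes were 0.63 (limma adjusted p 0.503) and 0.50 (limma adjusted p 0.649). Without KO replicate 2 they were 1.04 (limma adjusted p 0.153) and 0.86 (limma adjusted p 0.0228, in the fit that called 2343 of 12312 genes). They were smallest, at 0.22, without KO replicate 3 in uninjured and, at 0.27, without KO replicate 1 in injured muscle.

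Igfbp6, which prefers IGF2, was at 105.2, 53.7 and 64.6 RPM in uninjured WT and at 45.2, 48.8 and 35.8 RPM in uninjured KO muscle. Every KO library was lower than every WT library, as for Igf1; 2 of 9 genes did so beside 15.5% of all genes. The log2 change was -0.72 (SE 0.31, limma p 0.0463, adjusted p 0.340). After injury the groups overlapped, at 82.0, 52.7 and 59.9 RPM in WT and 38.3, 76.7 and 44.3 RPM in KO, with a log2 change of -0.32 (limma adjusted p 0.755). Without KO replicate 2, the library above the others of its group, the injured change was -0.62 (limma adjusted p 0.0703).

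Igfbp7, a binding protein of low IGF affinity that blood vessels make, was at 137.6, 95.2 and 104.2 RPM in uninjured WT and at 136.8, 161.9 and 84.1 RPM in uninjured KO muscle. The injured groups were at 158.0, 82.7 and 127.3 RPM in WT and 90.4, 260.0 and 87.9 RPM in KO. The injured KO value of replicate 2 was the highest of the 12, and its log2 change turned from 0.10 to -0.41 without that library. Igfbp2, a mainly fetal binding protein, was near the floor and was not tested. It had 0 reads in 2 uninjured WT libraries and at most 15 reads in any library, at most 1.18 RPM. In uninjured WT replicate 2, 0 reads allow a level of up to 1.60 RPM, above every level measured.

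**Figure D3:**
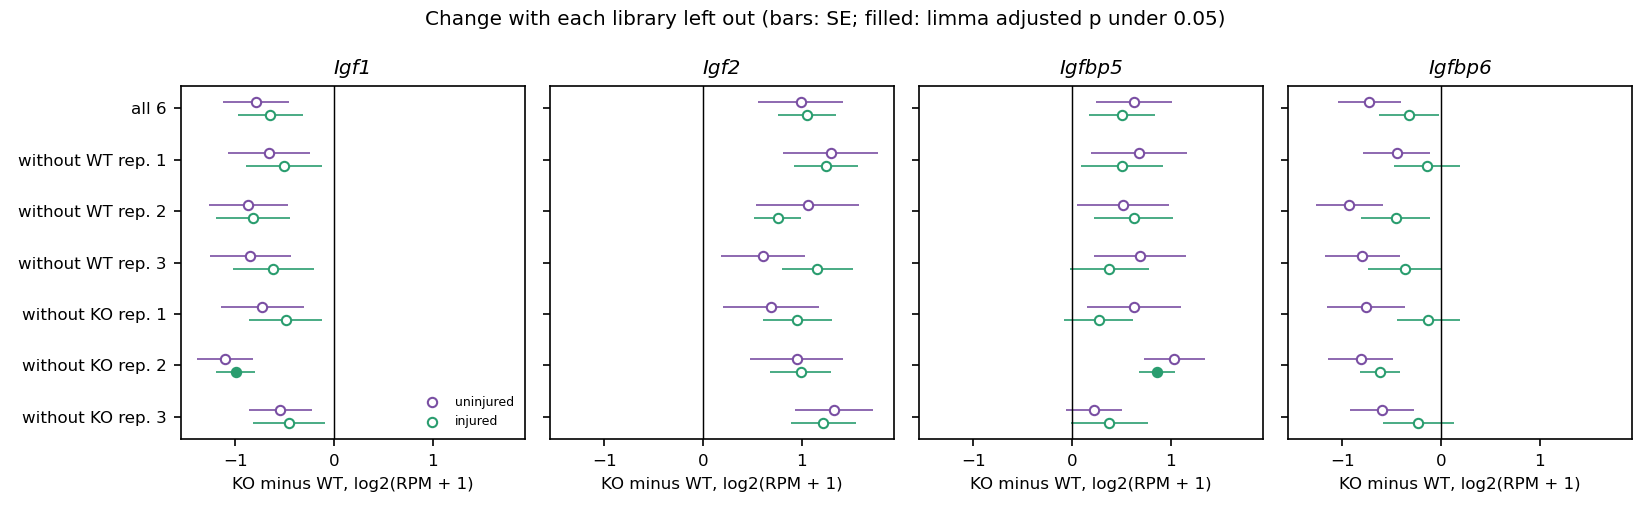
KO minus WT difference on the log2(RPM + 1) scale for Igf1, Igf2, Igfbp5 and Igfbp6 with all 6 libraries and with each left out in turn (bars, SE; filled points, limma adjusted p under 0.05). The only filled points are injured Igf1 and Igfbp5 without KO replicate 2. That fit called 2343 of 12312 genes, against 34 of 12625 with all 6 libraries.

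Injured and uninjured groups were compared within each genotype by group means, without pairing the legs of an animal. None of the 9 genes passed in WT or KO muscle. The rule called 0 of 13337 genes in either, with 172 (WT) and 468 (KO) genes at unadjusted p under 0.05 in limma. A limma fit that paired the legs by animal number also called 0, with 319 (WT) and 889 (KO) at unadjusted p under 0.05. DESeq2 and edgeR on recovered reads called 0 as well. Igf1 was lower in the injured than the uninjured leg of all 3 WT animals, with injured minus uninjured differences of -0.45 to -0.09 on the log2(RPM + 1) scale. Igfbp6 was lower in all 3 as well, by differences of -0.36 to -0.03. The injured leg was lower in all 3 WT animals for 8.50% of all genes. Igfbp5, Igf2r and Igfbp3 were higher in the injured leg of all 3, with differences of 0.05 to 0.89, 0.18 to 0.69 and 0.17 to 0.25, beside 17.5% of all genes. None of the 9 genes had 1 direction in all 3 KO animals. The share of all genes that did so in KO was not counted, so this is not set against the WT shares. Igfbp5 was the 1 gene of 9 whose WT groups did not overlap, beside 7.48% of genes higher after injury; its log2 change was 0.42 (SE 0.39, limma adjusted p 1). No gene had non-overlapping KO groups after injury, beside 6.74% of all genes.

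The genotype by injury interaction, the test of whether the change with injury differs between genotypes, was passed by none of the 9 genes and by 0 of 13337. It too was fitted without pairing the legs, and the paired fit called 0 as well. The estimate of largest size was that of Igfbp6, 0.40 (SE 0.45, limma p 0.387). KO minus WT changes were of the same sign in both states for 8 of the 9 genes, beside 69.9% of all genes; the exception was Igf1r. The 2 states come from the legs of the same animals, so they are not independent.

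For each animal, the genes were counted for which both legs lay above, or both below, the other 4 libraries of the genotype. KO replicate 2 did so for 5 of 9 genes: above for Igf1, Igfbp6 and Igfbp7, below for Igf2r and Igfbp5, beside 36.6% of all genes. KO replicate 3 did so for 5 (above for Igf2r, below for Igf1, Igf2, Igfbp3 and Igfbp7; 24.1% of genes), KO replicate 1 for Igf2 (7.13%). Among the WT animals, replicate 1 was above for Igf1, Igf2, Igfbp6 and Igfbp7 (13.0% of genes), replicate 2 below for Igf1r, Igfbp4, Igfbp6 and Igfbp7 (18.2%), and replicate 3 above for Igfbp3 (14.9%).

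When the 4 groups were ordered by mean, the mean of Igf1 was higher in both WT groups than in both KO groups, and that of Igf2 higher in both KO groups than in both WT groups. Within each genotype the uninjured mean was the higher for both ligands. Neighbouring groups did not overlap in 1 place for Igf2 and in 1 place for Igfbp5. For Igf2 the lowest injured KO library (46.5 RPM) was just above the highest uninjured WT library (46.0 RPM). These groups differ in both genotype and injury, and the share of all genes that did so was not counted. For Igfbp5 injured WT was above uninjured WT, beside 7.48% of all genes. All other neighbours in all 10 orders overlapped.

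Of 56 genes of the pathway around these members, 46 could be tested and none passed in any comparison, while 5 of 46 had unadjusted p under 0.05 in each KO against WT comparison, beside 14.2% (uninjured) and 10.3% (injured) of all genes. Upstream of Igf1, in the growth hormone signal, Socs2, a STAT5 target that limits the signal, was at 30.1, 13.3 and 23.5 RPM in uninjured WT and 10.9, 3.94 and 4.93 RPM in uninjured KO muscle. Its log2 change was -1.66 (limma p 0.0046, adjusted p 0.157). In the PI3K, AKT and mTOR group, Foxo4, a transcription factor that AKT restrains, was at 38.4, 35.6 and 60.7 RPM in uninjured WT and 104.8, 68.7 and 159.1 RPM in uninjured KO muscle, a log2 change of 1.24 (limma p 0.00721, adjusted p 0.186). Rictor, the defining part of mTOR complex 2, had a log2 change of -1.14 (limma adjusted p 0.285) in uninjured muscle. In injured muscle its change was -0.89 (limma p 0.00151, adjusted p 0.165). In injured muscle the smallest p-values in the other direction were those of Akt1, 0.54 (limma adjusted p 0.357), and Ptpn11, the phosphatase SHP2, 0.77 (limma adjusted p 0.452). The imprinted neighbour H19, an RNA made beside Igf2, was at 236.6, 95.2 and 113.3 RPM in uninjured WT and 435.1, 196.4 and 449.1 RPM in uninjured KO muscle, a log2 change of 1.30 (limma p 0.0141, adjusted p 0.221). Airn had a log2 change of -0.63 (limma adjusted p 0.464) in injured muscle. There, all KO libraries were above all WT libraries for 7 of the 46 genes, Akt1 among them, beside 8.29% of all genes. They were below all WT libraries for 3, Rictor and Airn among them, beside 8.63% of all genes.

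Summed levels of several marker lists differed in range between the genotypes. No gene of these lists passed the adjusted test for KO against WT, and their part in these results was not tested. Macrophages are a known source of Igf1 in injured muscle. Their 6 marker genes summed to 87.8 to 165.1 RPM in uninjured WT and 48.0 to 86.7 RPM in uninjured KO libraries. In injured muscle they summed to 109.5 to 150.8 (WT) and 91.8 to 97.3 RPM (KO). By replicate, the uninjured KO sums were 76.4, 48.0 and 86.7 RPM, where Igf1 was at 29.3, 50.1 and 22.5 RPM. The uninjured WT sums were 165.1, 87.8 and 148.5 RPM, with Igf1 at 67.7, 50.5 and 52.0 RPM. The injured WT sums were 150.8, 109.5 and 148.6 RPM, with Igf1 at 57.0, 36.7 and 48.9 RPM. The injured KO sums were 91.8, 97.3 and 94.7 RPM, with Igf1 at 23.5, 48.5 and 22.5 RPM. A link of the 2 was not tested. The ranges of the macrophage sums in WT and KO did not overlap in either state, and none of the 6 was at 0 in any library. Taken singly, all 6 had lower estimates in KO in both states. Of these, 4 (uninjured) and 2 (injured) did not overlap, beside 15.5% and 8.63% of all genes. The 6 adipocyte genes summed to 1199 to 2008 RPM in uninjured WT and 1701 to 3187 RPM in uninjured KO, ranges that overlapped. In injured muscle they summed to 382.9 to 1314 (WT) and 1376.5 to 2992 RPM (KO), without overlap. Taken singly, all 6 had higher estimates in KO in both states. Unadjusted limma p was under 0.05 for 4 (uninjured) and 3 (injured), beside 14.2% and 10.3% of all genes in either direction. In injured muscle 0 of the 6 were without overlap, beside 8.29% of all genes higher in KO. The 5 satellite cell genes, of which 2 were at 0 in some library, summed to 21.3 to 32.4 RPM in uninjured WT and 8.3 to 15.7 RPM in uninjured KO. In injured muscle they summed to 24.0 to 30.2 (WT) and 15.6 to 23.5 RPM (KO), and the sums did not overlap in either state. Of the 4 that could be tested singly, 3 had lower and 1 had higher estimates in KO in each state. Only 1 of the 4 was without overlap in each, beside 15.5% (uninjured) and 8.63% (injured) of all genes. The muscle fibre genes summed to 96902 to 115009 RPM in uninjured WT and 135595 to 152667 RPM in uninjured KO, without overlap, while the injured ranges overlapped. Singly, estimates of the 8 fibre genes were higher in KO for 7 and lower for 1 in uninjured muscle. In injured muscle they were higher for 5 and lower for 3. Fibroblast and fibro-adipogenic genes ran from 669.6 to 1929 RPM in uninjured WT and from 578.3 to 1247 RPM in uninjured KO. The nuclear RNAs Malat1, Neat1 and Meg3 summed to 1643 to 3344 RPM in uninjured WT and 559.2 to 1826 RPM in uninjured KO; in injured KO they were at 597.4, 5427 and 608.9 RPM, highest in the library of replicate 2.

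Across the 12 libraries, the genes of most similar pattern were found by Pearson's r of log2(RPM + 1). This is a description over libraries that share animals and differ in depth. The genes named were picked for the highest r among the 13337 tested, so a high r follows in part from that choice. Igf1 was most like Ndufb4 (r = 0.974), a complex I subunit, then Cmc4 and Clk1. Igf2 was most like Sh3glb2 (0.948), then Immp2l and Cyb5r3. Igfbp5 was most like Nf2 (0.985), then Fbxw8 and Actr1b, Igf2r like Rad17 (0.975), Igfbp3 like Aqp1 (0.918), a water channel, and Igfbp7 like Endou (0.957) and Robo4 (0.956). Igf1r was most like Lmbrd1 (0.943), Igfbp6 like Ppip5k2 (0.956) and Igfbp4 like Cyp4f18 (0.924).

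Flag-Myf6 peaks, with the authors' fold enrichment, lay inside or within 50 kb of a start for 5 of the 10 genes: Igf1r, Igf2r, Igfbp2, Igfbp5 and Igfbp6. Of 17274 protein-coding genes, 41.9% had a peak by this rule, and 5 of 10 is near that share. With 1 library there is no replicate and no test. The strongest peak was inside Igf2r, at chr17:12759694-12760129, 9.7 kb from its start, at 17.1-fold, beside a median of 7.68-fold over all 12898 peaks; 3 more lay inside the gene. Igf1r held 5 peaks of 6.28 to 8.09-fold inside it. The peak at chr1:72847864-72848281 (14.0-fold) is inside Igfbp2 and 26.7 kb downstream of the start of its neighbour Igfbp5, so 1 peak counts for both. Igfbp5 also had 4 peaks 77.1 to 94.7 kb upstream of its start, of 8.45 to 14.5-fold, outside the 50 kb rule, and Igfbp6 had 1 peak 39.8 kb upstream, inside Tns2. Igf2 had none within 50 kb, and 2 peaks 56.5 and 56.9 kb downstream of its nearest start, at 12.5 and 7.63-fold, lay in a lncRNA, Gm33148, between Igf2 and H19. Igf1, Igfbp3 and Igfbp7 had none within 100 kb. The coordinates are those of the deposited list, compared with GRCm38.p6 starts.

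**Figure D4:**
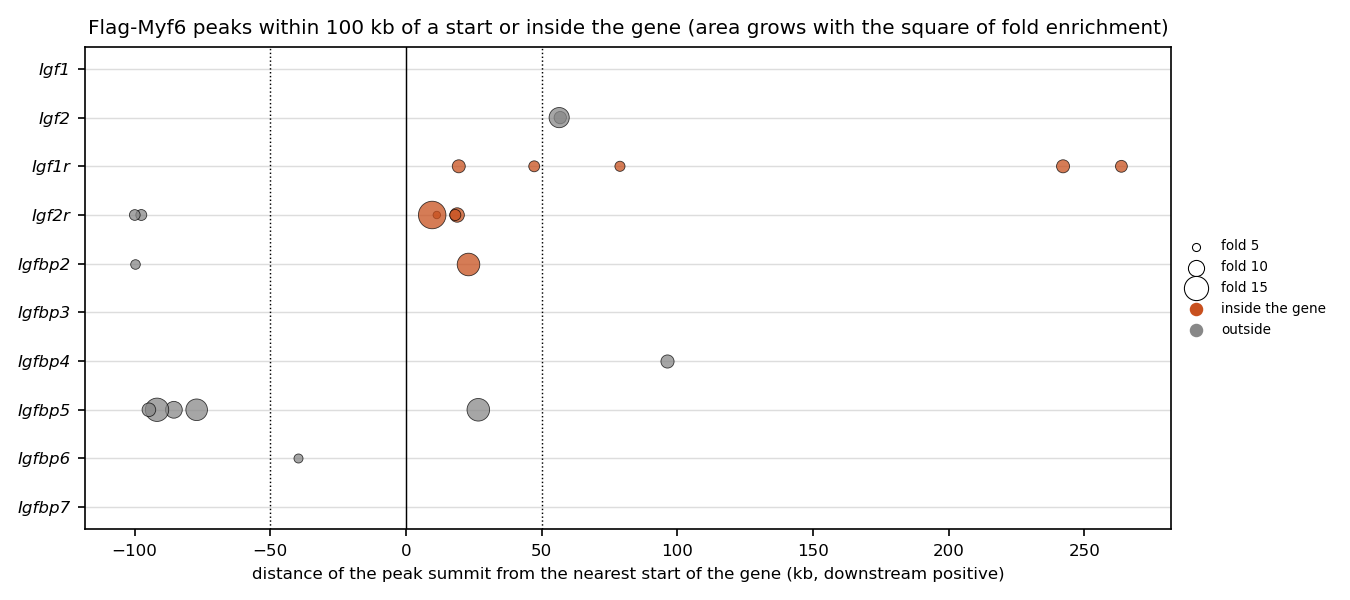
Distance of each Flag-Myf6 peak summit from the nearest start of the gene (kb; positive is downstream), for peaks within 100 kb of a start or inside the gene, with area growing with the square of the fold enrichment; dotted lines mark 50 kb. The 17.1-fold peak 9.7 kb inside Igf2r is the strongest, and Igf1, Igfbp3 and Igfbp7 have no peak in this range.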

How the data were processed

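RNA-seq (12 libraries, 4 groups of 3) and ChIP-seq (1 Flag-Myf6 library against 1 control) were deposited as tables. Per the labels' protocols, total RNA came from a Trizol extraction, and libraries were made with Illumina's TruSeq RNA v2 reagents; the submitters' processing notes list Bowtie 1.1.0, HISAT2 2.1.0, SAMtools, featureCounts, DESeq2 and MACS2 2.1.0.20140616, and the builds mm10 and GRCm38.p5, without roles. The authors deposited RPM per library. Their tables also hold, for each gene, a deposited log2 fold change, p-value and q-value; the fold change's sign is WT over KO and is turned here. For each peak the deposited list gives the signal (pileup), the fold enrichment ratio and −log10 of p and q, per the file headers. Whole reads were recovered from the size of 1 read; 100% of tested values were whole within 0.1 read.

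The members, lists and tests were chosen with earlier results of these data known. limma 3.58.1 (R 4.3.3; lmFit, eBayes with trend) was run on log2(RPM + 1), which understates changes of low genes, over genes reaching 1 RPM in 3 or more fitted libraries, two-sided, with Benjamini-Hochberg adjustment over all genes; KO against WT used its 6 libraries, injury and the interaction all 12. Named are all members, pathway genes that passed or otherwise the 2 of smallest p per direction per genotype comparison, and the 3 genes most like each member (of which the text gives 1 to 3). Alternatives were DESeq2 1.42.0 and edgeR 4.0.16 on recovered reads, TMM, upper quartile and non-mitochondrial scaling, a pseudocount of 0.1, other filters, a replicate block, all 12 libraries in 1 fit, and each library left out. Fits were run on simulated data with planted changes larger than those of the members and no animal that stood apart. They do not show how well changes of the members' size would be found. Animal numbers pair the legs by label: same-number deviations correlated at a mean r of 0.385 in KO and 0.021 in WT. They join different animals for KO against WT. Columns of other series in the tables numbered 0. Peak start distances use RefSeq GRCm38.p6 starts.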

Additional observations from a re-analysis of the deposited data

How the results depend on the processing

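The number of the 9 genes called was 0 for each KO against WT comparison and moved to 1 in uninjured muscle with the replicate block (Igf2), to 1 in injured muscle with DESeq2 (Igf2) and, over the fits leaving out 1 library each, from 0 to 2 in injured muscle, with 2 (Igf1 and Igfbp5) without KO replicate 2. The block joins animals that share only a number in KO against WT. Their same-number deviations correlated at a mean r of 0.222 in uninjured and -0.452 in injured muscle. The block called 752 and 0 genes over the whole tables, against 35 and 34 without it. It called no member in the injury comparisons, where the pairing is by label. Over the whole tables, DESeq2 called 663 and 427 genes and the authors' deposited q-values 331 and 225; in uninjured muscle TMM called 110, upper quartile scaling 122 (47 higher, 75 lower), scaling outside mitochondrial reads 199 (31 higher, 168 lower, against 16 and 19), all 12 libraries in 1 fit 167, edgeR 55, a pseudocount of 0.1 20, no filter 1, and at least 1 RPM in every library 7; in injured muscle all 12 libraries called 56, no filter 19, and the filter of 1 RPM in every library 4. Leaving out 1 library gave 3 to 84 genes in uninjured and 0 to 2343 in injured muscle, 2343 of them without KO replicate 2. With peaks inside the gene counted at any distance, the members with a peak were 3 with a 10 kb window (beside 22.0% of genes). They were 3 at a fold of at least 10 (17.0%) and 7 at 100 kb (57.6%). Of the 3 at 10 kb, only Igf2r had a peak within 10 kb of a start (9.7 kb). Igf1r (nearest 19.5 kb) and Igfbp2 (22.8 kb) counted through peaks inside the gene. Signs turned for uninjured Igf1r (0.058 with DESeq2, 0.055 with edgeR, 0.067 with TMM, 0.063 in the authors' deposited table), Igf2r (-0.082) and Igfbp7 (-0.0066) with scaling outside mitochondrial reads, and Igfbp4 (0.00082 with TMM, 0.0016 in the authors' table), and for injured Igf1r (-0.027) and Igf2r (-0.022) with upper quartile scaling; the cause was not tested. Leaving out 1 library, log2 changes for KO against WT in uninjured muscle ran from -0.35 to 0.067 for Igf1r, -0.35 to 0.46 for Igf2r, 0.22 to 1.04 for Igfbp5 and -0.047 to 0.42 for Igfbp7, and in injured muscle from -0.047 to 0.16, -0.11 to 0.30, 0.27 to 0.86 and -0.41 to 0.37. For injury in KO they ran from -0.46 to 0.20 for Igf1, -0.37 to 0.27 for Igf2, -0.0076 to 0.80 for Igf2r, -0.094 to 0.32 for Igfbp3, -0.092 to 0.12 for Igfbp4, -0.11 to 0.71 for Igfbp5, -0.057 to 0.43 for Igfbp6 and -0.46 to 0.32 for Igfbp7; in WT from -0.15 to 0.27 for Igf1r, -0.47 to 0.21 for Igf2, -0.065 to 0.48 for Igfbp3, -0.30 to 0.15 for Igfbp4, -0.37 to 0.11 for Igfbp6 and -0.11 to 0.35 for Igfbp7. The directions of Igf1, Igf2, Igfbp3, Igfbp5 and Igfbp6 for KO against WT stayed in all 17 alternatives of each state. Depth limits Igfbp2, which was not tested.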
